A study of Mus musculus with 4 samples.

Results

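Regions of accessible chromatin that stayed open in TCKO osteoblasts but held far fewer reads there than in WT osteoblasts were examined. They were the regions on chromosomes 1 to 19 that overlapped an interval of both deposited peak lists, held at least 100 WT counts and had a scaled TCKO count at least 2-fold below the WT count. Of 255864 regions in the table, 145301 were shared by both peak lists and 99925 of these met the chromosome and count limits, here called the compared regions. Of the compared regions, 2010 (2.01%) met the limit on the ratio, and these are the lower regions described here. They were chosen by the measured counts of the same WT and TCKO comparison, so their counts, ratios and peak heights are given as a description with no test. What the choice did not use, namely position, nearest gene and sequence, is described beside the same values over all compared regions, also without a test.

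TET enzymes oxidise methylated cytosine at CpG dinucleotides, the first step by which the methyl group is removed, and they act at many enhancers. Enhancers are stretches of DNA, often far from any gene start, that transcription factors bind and that lie in accessible chromatin when in use. Osteoblasts, the bone-forming cells, depend on factors such as Runx2 and on signals of the Wnt, BMP, FGF and hedgehog families.

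Primary calvarial osteoblasts of C57BL/6 mice aged 3 days had been profiled by ATAC-seq, in which a transposase cuts DNA where chromatin is accessible. WT mice were compared with TCKO mice, which carried Prx1-Cre and floxed Tet1, Tet2 and Tet3 alleles. Prx1-Cre acts in mesenchymal cells of the limbs and part of the skull, and whether the WT mice carried Cre or any floxed allele was not given in the sources used here. The labels listed 2 samples of each genotype, but the deposited counts had been merged to 1 column for each genotype, so no value below has a replicate error and no p-value was computed. Intervals are 95% Wilson intervals. Those of a ratio cover counting error alone, because the replicates were merged. They may be too narrow even for that, because the reads carry no molecular identifiers and may repeat a molecule. Those of a share of regions treat each region as independent, although regions are not replicates of a genotype. The libraries held 56898657 WT and 34608167 TCKO counts over all regions, and TCKO counts were multiplied by 1.64 to match. All coordinates are GRCm38, counted from 1.

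The central 300 bases of 7 lower regions are printed, read from the GRCm38 reference on its plus strand. The first 3 are the lower regions with the lowest ratio that had an NFI site (the NFI core TTGGCA on either strand) in the central 200 bp. The next 2 are those with the lowest ratio that had a Runt site containing a CpG (TGCGGTT). Raet1d had the lowest ratio among regions with neither site nor the usual Runt site (TGTGGTT) anywhere in the printed bases, and Runx3, a listed bone factor, had the lowest ratio of the 12 most read promoter regions. Regions are named by the gene with the nearest protein-coding start, and capitals mark the NFI site and both forms of the Runt site. Regions under 300 bp or with fewer than 200 WT counts were left out of this choice.
Rnd3 chr2:50877831-50878130: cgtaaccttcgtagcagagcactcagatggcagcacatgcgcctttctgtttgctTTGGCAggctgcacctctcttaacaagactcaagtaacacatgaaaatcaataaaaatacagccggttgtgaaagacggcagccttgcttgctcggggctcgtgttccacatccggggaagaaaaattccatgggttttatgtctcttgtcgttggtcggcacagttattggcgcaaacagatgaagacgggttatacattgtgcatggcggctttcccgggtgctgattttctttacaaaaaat
Sox5 chr6:143571318-143571617: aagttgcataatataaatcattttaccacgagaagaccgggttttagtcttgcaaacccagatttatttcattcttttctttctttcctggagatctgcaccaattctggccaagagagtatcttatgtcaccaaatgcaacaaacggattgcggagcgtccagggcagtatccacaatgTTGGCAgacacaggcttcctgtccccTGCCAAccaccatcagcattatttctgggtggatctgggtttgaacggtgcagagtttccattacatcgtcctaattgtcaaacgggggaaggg
Caln1 chr5:130765897-130766196: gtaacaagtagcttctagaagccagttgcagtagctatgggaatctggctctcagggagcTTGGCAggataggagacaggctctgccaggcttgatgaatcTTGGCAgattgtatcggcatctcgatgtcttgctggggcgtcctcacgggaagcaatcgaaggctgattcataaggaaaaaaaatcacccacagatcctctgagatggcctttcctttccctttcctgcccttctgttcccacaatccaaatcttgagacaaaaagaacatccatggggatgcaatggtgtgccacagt
Klf12 chr14:100212999-100213298: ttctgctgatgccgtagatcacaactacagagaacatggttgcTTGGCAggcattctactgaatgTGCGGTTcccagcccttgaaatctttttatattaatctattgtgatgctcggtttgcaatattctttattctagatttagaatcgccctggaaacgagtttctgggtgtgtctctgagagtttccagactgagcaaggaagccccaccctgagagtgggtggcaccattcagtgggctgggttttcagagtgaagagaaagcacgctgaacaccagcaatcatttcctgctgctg
Tbl1xr1 chr3:21379895-21380194: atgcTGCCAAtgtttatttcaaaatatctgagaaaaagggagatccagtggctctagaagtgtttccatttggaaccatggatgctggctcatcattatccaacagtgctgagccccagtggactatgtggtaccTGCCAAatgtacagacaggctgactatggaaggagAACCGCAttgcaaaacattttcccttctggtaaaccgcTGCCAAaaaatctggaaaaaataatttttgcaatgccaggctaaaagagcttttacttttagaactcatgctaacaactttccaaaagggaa
Raet1d chr10:22402512-22402811: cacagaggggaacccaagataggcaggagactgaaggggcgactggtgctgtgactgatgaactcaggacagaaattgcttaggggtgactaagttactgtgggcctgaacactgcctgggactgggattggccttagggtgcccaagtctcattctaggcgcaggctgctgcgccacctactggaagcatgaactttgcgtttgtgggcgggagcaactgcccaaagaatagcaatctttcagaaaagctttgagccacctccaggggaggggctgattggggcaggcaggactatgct
Runx3 chr4:135120204-135120503: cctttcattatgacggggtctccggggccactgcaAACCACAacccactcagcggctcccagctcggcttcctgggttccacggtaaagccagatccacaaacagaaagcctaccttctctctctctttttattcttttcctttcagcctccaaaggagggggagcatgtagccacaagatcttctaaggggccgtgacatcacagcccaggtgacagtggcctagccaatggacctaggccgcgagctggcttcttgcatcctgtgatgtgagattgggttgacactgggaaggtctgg

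Within the printed stretches, the region near Rnd3 held 14 CpG, the one near Tbl1xr1 held 2 CpG with 3 NFI sites, and the one near Sox5 held 8 CpG with 2 NFI sites. The NFI site is bound by Nuclear factor I proteins and the Runt site by Runx proteins, but a match shows only that the letters are present.

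The lower regions held a median of 429 WT counts, from 101 to 4378, and a median of 108 TCKO counts, from 29 to 1302, which is 177.6 after scaling. The log2 ratio ran from -2.25 to -1.0003 with a median of -1.16, beside a median of -0.0082 over all compared regions. Of the 2010, 645 (32.1%) had a ratio above -1.1, 186 had a ratio of -1.5 or less and 11 had a ratio of -2 or less. Every interval lay below 0, which follows from the limits on the ratio and on WT counts. The interval of 552 regions (27.5%) lay wholly below -1. Just inside the limit were a region near Tacc2 with 297 WT and 90 TCKO counts, one in an intron of Rnf144a with 478 and 145, and one near Lpin1 with 103 and 31. Just outside it were a region in an intron of Ak8 with 195 and 59 counts and regions near Rhobtb1 and Arhgap20 with 458 and 139 each, and their intervals overlapped those of the regions just inside.

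**Figure D1:**
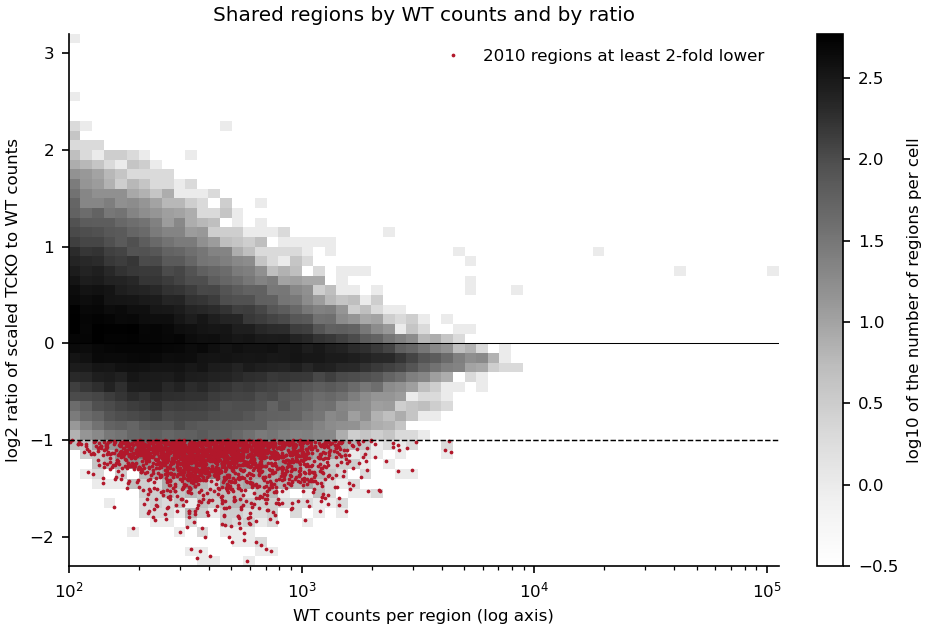
Each red point is 1 of the 2010 lower regions, plotted by its WT counts (log axis) and by the log2 ratio of scaled TCKO to WT counts, over grey cells that count all 99925 compared regions. The dashed line marks the limit of -1, and the points are densest just under it, with 645 above -1.1.

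The number of lower regions depended on how the libraries were scaled. With the total count, 2010 regions were lower and 2858 (2.86%) were at least 2-fold higher. The split was 2670 lower and 2172 higher with TMM, 2561 and 2262 with DESeq2 size factors, and 2401 and 2477 after a loess fit. Scaling to the background level of the peak caller moved the median ratio of compared regions by -0.61 and gave 15835 lower and 197 higher, and no scaling moved it by -0.71 and gave 22489 and 109. All 2010 were at least 2-fold lower under each of the 4 other library factors, because each of those factors is smaller than 1.64. After the loess fit 1901 of them were, and 1881 after removing the median in bins of GC content.

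Lower regions made up the smallest share of compared regions at the lowest WT counts. They made up 0.467% of compared regions with 100 to 199 WT counts, 2.58% at 200 to 399, 4.01% at 400 to 799 and 2.21% at 800 or more. The lowest TCKO count of any compared region was 29, and each overlapped a TCKO peak by the rule of choice, whose part in this was not tested. Taking in regions with 50 to 99 WT counts left the number at 2010. The lowest TCKO count of any compared region was 47.7 after scaling. Regions with 50 to 99 WT counts thus had little room to reach the limit, and the unchanged number is no sign of stability. Regions not far above 100 WT counts had little room too. The share at 100 to 199 WT counts therefore cannot be read as a trait of weakly read regions.

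The authors' peak values come from the same reads and were lower at nearly all of the same regions. The median of the highest fold enrichment over local background was 7.73 in WT and 4.08 in TCKO, beside 6.96 and 5.67 over all compared regions. The TCKO value was the smaller one at 1997 of the 2010 lower regions and at 76975 of the 99925 compared regions (77.0%). This enrichment is measured within each library. The number of summits was smaller in TCKO at 947 lower regions (47.1%), equal at 964 and larger at 99. It was also smaller in TCKO at 27807 of the 99925 compared regions (27.8%). The lower regions were wider than the compared regions, with medians of 558 and 473 bp.

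Lower regions lay mainly away from gene starts. A promoter, here a midpoint within 1 kb of a protein-coding start, held 64 of them (3.18%, 2.501% to 4.05%), against 16.4% of all compared regions. Introns held 999 (49.7% against 39.5%), intergenic DNA 895 (44.5% against 41.6%), untranslated exons 32 (1.59% against 1.36%) and coding exons 20 (0.995% against 1.24%). The regions at least 2-fold higher were also rare at promoters (2.52%). The median distance to the nearest start was 41.0 kb, against 22.2 kb for compared regions, and 501 lower regions (24.9% against 18.7%) lay beyond 100 kb. Of the 999 intronic regions, 841 lay in the gene whose start was nearest. Shares per chromosome ran from 1.53% on chromosome 11 to 2.54% on chromosome 17.

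The 64 promoter regions belonged to 63 genes, and their DNA was unlike that of most promoters. They held a median of 4 CpG in the central 200 bp, against 14 over the 16355 compared promoters. Only 2 of them held more than 11 CpG, as did 9934 of the compared promoters (60.7%). Of the 6421 promoters with up to 11 CpG, 62 were lower (0.966%).

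Among the promoter regions with most WT counts, that of Runx3, a Runt-domain factor active in cartilage and bone, had 1621 WT and 346 TCKO counts, a log2 ratio of -1.51 (-1.68 to -1.34). It lay 298 bp before the start, at chr4:135119849-135120858, and was the lowest of the 12 most read promoter regions. Synm, which encodes the intermediate filament protein synemin, had 1670 and 488 counts, and Mill2, an MHC class I-like molecule, had 1539 and 421. Adh7, an alcohol dehydrogenase that oxidises retinol, had 1418 and 396 counts, a ratio of -1.12 (-1.28 to -0.96). Panx3, a pannexin channel of osteoblasts and chondrocytes, had 929 and 266 counts, a ratio of -1.09 (-1.28 to -0.89). The other 7 were Aqp1, a water channel, Tenm4, a teneurin adhesion protein, Ptov1, Akt2, a kinase of insulin signalling, Efcab1, Tiam2, an activator of Rac, and Rassf5, a Ras effector, with ratios from -1.03 for Efcab1 to -1.27 for Akt2. Beyond these 12, the promoters of 2 more listed genes were lower. Ctsk, which encodes the bone-resorbing protease cathepsin K, had 650 WT and 165 TCKO counts at 156 bp before its start, a ratio of -1.26 (-1.51 to -1.01). Rxrg, a retinoid X receptor, had 497 and 112 counts, a ratio of -1.43 (-1.73 to -1.14).

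Lower regions held an intermediate number of CpG. From 3 to 11 CpG lay in the central 200 bp of 65.0% of them, against 40.8% of compared regions. To set promoters aside, the 1946 lower regions outside promoters were placed beside the 83570 distal compared regions and the 2786 distal regions at least 2-fold higher. Median CpG numbers were 3, 2 and 1, and the observed over expected CpG ratios were 0.284, 0.199 and 0.132. The GC content hardly differed between the lower and the compared distal regions, with medians of 49% and 48.5%. The share of distal regions that were lower rose from 0.924% with no CpG to 3.07% with 3 to 4 CpG and 4.37% with 5 to 7, was 4.15% with 8 to 11, and was 0.219% (4 of 1823) with 12 or more. The same order held among regions of 200 to under 800 WT counts up to 5 to 7 CpG, from 1.44% with no CpG to 5.83%. These bands were set after the data were seen.

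**Figure D2:**
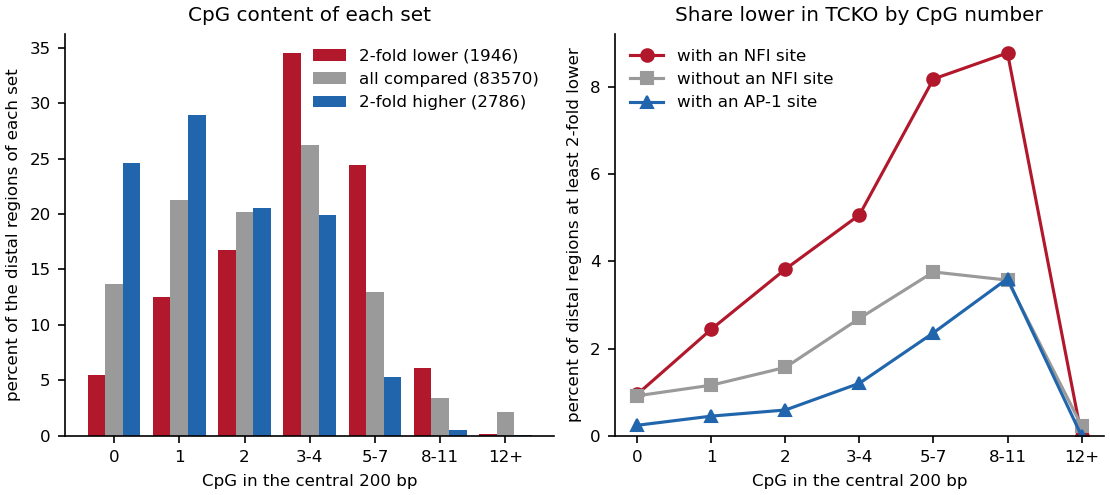
The left panel gives the percent of distal regions of each set by the number of CpG in the central 200 bp, with 24.4% of lower, 13.0% of compared and 5.35% of higher regions at 5 to 7 CpG. The right panel gives the percent of distal compared regions that were at least 2-fold lower, for those with and without an NFI site and those with an AP-1 site, and all 3 lines fall at 12 or more CpG.

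Of 25 consensus sequences searched on both strands of the central 200 bp, the NFI site was the one most often found in lower regions. It was in 541 lower regions (26.9%, 25.02% to 28.9%), against 14.1% of all compared regions and 10.7% of the higher regions. Outside promoters the shares were 26.8% and 15.5%. In the 4 bands of WT counts it was in 28.7%, 29.4%, 24.8% and 25% of lower regions, against 14.3%, 15.5%, 14.5% and 10.7% of compared regions. At least 2 NFI sites were in 75 lower regions (3.73% against 1.20%). The full NFI palindrome was in only 2 lower regions (0.0995% against 0.0380%). The share with an NFI site was 35.2% among the 128 regions at least 3-fold lower and 23.8% among the 8794 at least 1.5-fold lower.

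The number of CpG and the NFI site went with the lower regions jointly. Of distal regions with no CpG, 0.954% of those with the NFI site and 0.918% of those without it were lower. With 5 to 7 CpG these shares were 8.18% of 1516 regions and 3.76% of 9344. With 8 to 11 CpG they were 8.78% of 319 and 3.57% of 2550. The NFI site itself contains no CpG.

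The Runt site TGTGGTT was in 220 lower regions (10.9%, 9.65% to 12.4%), against 7.98% of compared regions. Outside promoters the shares were 10.8% and 9.03%, and among regions of fewer than 200 WT counts they were 8.19% and 8.95%. Its variant with a CpG, TGCGGTT, was rarer, in 43 lower regions (2.14%, 1.59% to 2.87%), against 0.987% of compared and 0.385% of higher regions. An NFI site or either Runt form was in 734 lower regions (36.5% against 21.7%), and 68 had both kinds (3.38% against 1.40%). The remaining lower regions, like the one near Raet1d, had none of these letters in the window.

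The AP-1 site TGANTCA, bound by Fos and Jun proteins, was scarce. It was in 196 lower regions (9.75%, 8.53% to 11.1%), against 22.9% of compared regions and 51.3% of the higher regions. Of the 22904 compared regions with an AP-1 site, 0.856% were lower. The CTCF consensus, bound by the insulator protein CTCF, was in 0 of the 2010 lower regions (interval up to 0.191%) and in 1.77% of compared regions. The ETS site CCGGAAG (1.04% against 2.30%) and the GC box GGGCGG (5.87% against 12.04%) are frequent at promoters, and outside promoters the GC box was in 5.86% and 5.68%. The C/EBP site TTGCNNAA was in 11.2% against 8.51%. TEAD sites (9.75% against 9.52%), the homeobox core TAATTA (2.34% against 2.35%) and the E-box CAGCTG (16.0% against 15.7%) were about as frequent in both sets.

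A count of all 6-base sequences, made after the data were seen, covered the 1776 found in at least 2% of distal compared regions. Of the 30 with the highest ratio of shares, 28 contained a CpG. The highest was ACCGCA, the core of the Runt site with a CpG, in 6.01% of lower and 2.91% of compared distal regions. The highest without a CpG was TGCCAA, the NFI site, and the next was GCCAAA (19.7% against 12.2%). The lowest was CACCTG (3.49% against 7.92%), followed by GACTCA and GAGTCA, each part of the AP-1 site. Which factor's site the CACCTG matches belonged to was not tested.

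NFI and Runt matches were most frequent near the summit of the accessible stretch. By distance from the highest WT summit, 5.81% of distal lower regions had an NFI site centred in the 25 bp before it, against 2.69% of distal compared regions, and 1.85% against 1.47% at 225 to 250 bp before it. The Runt site reached 2.21% against 1.90% in the 25 bp after the summit. The AP-1 site reached 8.66% of compared regions there but 2.31% of lower regions. The CpG density of distal lower regions was 2.11 per 100 bp in the same 25 bp, against 1.63, and 1.35 against 1.19 at 225 to 250 bp after it.

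**Figure D3:**
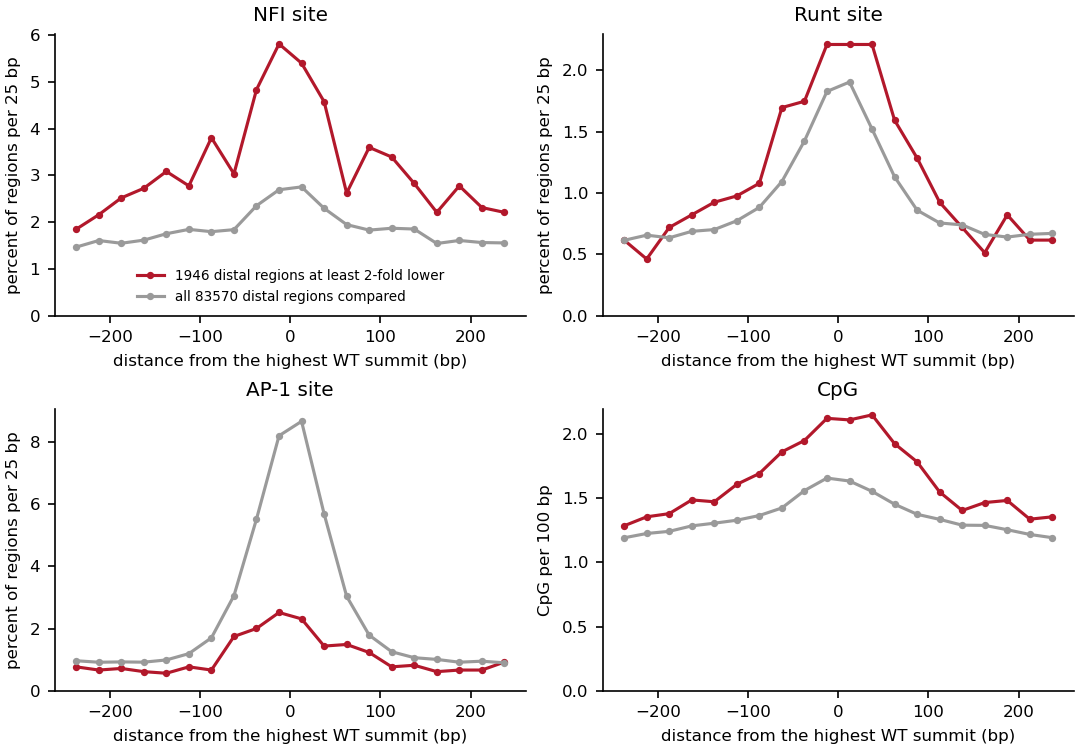
The panels give, by distance in bp from the highest WT summit in bins of 25 bp, the percent of distal regions with an NFI site, a Runt site or an AP-1 site, and the CpG per 100 bp. Red stands for the 1946 distal lower regions and grey for the 83570 distal compared regions, and red lies above grey at the summit for NFI and CpG and far below it for AP-1.

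The 12 lowest ratios among regions with at least 200 WT counts ran from -2.25 to -1.998. The lowest was a region 271.1 kb from Rnd3, a regulator of the actin cytoskeleton, with 584 WT and 74 TCKO counts, a ratio of -2.25 (-2.61 to -1.92). It was 593 bp wide, and its fold enrichment was 14.9 in WT and 4.47 in TCKO. Next was an intronic region of Ifngr1, the interferon gamma receptor, with 356 and 46 counts, a ratio of -2.22 (-2.68 to -1.79). A region 375.6 kb from Sox5, an HMG-box factor of chondrocytes, had 705 and 98 counts, a ratio of -2.12 (-2.43 to -1.83). An intronic region of Max, the partner of Myc proteins, had 737 and 101 counts, a ratio of -2.14 (-2.45 to -1.85).

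The other 8 of the 12 lay near Raet1d, a ligand of an immune receptor, Otud7a, a deubiquitinase, and Rgma, a BMP co-receptor, in introns of Hsd17b4, a peroxisomal enzyme, Caln1, a calcium-binding protein, Akap7, an anchor of protein kinase A, and Suclg2, a subunit of succinate-CoA ligase, and near BC067074. Their WT counts ran from 334 to 671 and their TCKO counts from 46 to 96. None of the 12 was at a promoter, 4 had an NFI site in the central 200 bp and 1, in Caln1, had an AP-1 site.

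The lower regions with most WT counts had ratios nearer the limit. A region 20.1 kb before the start of Prelp, a small leucine-rich proteoglycan of connective tissue, had 4378 WT and 1226 TCKO counts, a ratio of -1.12 (-1.21 to -1.03). The Prelp promoter, with 578 and 150 counts, and a region 47.5 kb before the start, with 486 and 138, were lower as well, so that 3 of the 12 compared regions of this gene were. A region 37.2 kb from a start of Dhrs3, which reduces retinaldehyde to retinol, had 4303 and 1302 counts, a ratio of -1.01 (-1.097 to -0.92). One of 935 bp inside an intron of Timp2, a metalloproteinase inhibitor, had 4128 and 1172 counts. Its nearest start was that of Cep295nl. Others of these regions lay 75.5 kb from Rxra, a retinoid X receptor, with 3107 and 932 counts, 303.1 kb from Rps24, a ribosomal protein, with 2980 and 729, and in introns of Aig1 and Ip6k3, an inositol phosphate kinase, with ratios of -1.09 and -1.05. None of these 7 most read regions had an NFI site in the central 200 bp, while the Prelp promoter had 2.

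The lower regions were spread over many genes. Of 16567 genes nearest to a compared region, 1516 were nearest to a lower one, 1167 of them to a single one, 262 to 2 and 87 to 3 or more. The gene with most was Thsd4, a thrombospondin-repeat protein of microfibrils, with 8 lower regions of 45 compared. Auts2, a regulator of neural development, had 7 of 88, Wwox, an oxidoreductase, 7 of 32, and Lpin1, a phosphatidate phosphatase of fat synthesis and a coregulator, 7 of 35. Npvf, a neuropeptide precursor, had 6 of 24, Foxn3, a forkhead repressor, 6 of 39, Reep3, a membrane protein of the endoplasmic reticulum, 6 of 50, and Tenm3, a teneurin, 6 of 53. Bicc1, an RNA-binding protein, had 5 of 28, and Dhrs3, Ets1, an ETS factor, and Spred2, an inhibitor of MAP kinase signalling, had 4 each. In all 36 genes had 4 or more, and those with 4 were ordered by the WT counts of their lower regions. Of 3005 genes with 10 or more compared regions, no gene had as many as 50% of them lower, and the highest share was 30%.

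At these genes the lower regions stood among regions that were not lower. At Thsd4 (ENSMUSG00000032289), 7 of the 8 were intronic and 1 intergenic, 34.6 to 170.9 kb from the nearest start, with WT counts from 223 to 854 and TCKO counts from 51 to 234. Their ratios ran from -1.40 to -1.08, and the median over all 45 was -0.28. At Wwox (ENSMUSG00000004637) all 7 were intronic, 103.7 to 570.5 kb after the start, and the lowest had 490 and 92 counts, a ratio of -1.69 (-2.02 to -1.38). An eighth lower region inside a Wwox intron had Maf, a bZIP factor, as its nearest start, 392.0 kb away, with 237 and 45 counts.

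At Lpin1 (ENSMUSG00000020593) 6 of the 7 were intergenic, beyond the 3′ end of the gene. The lowest, at chr12:16383480-16383890, had 533 and 94 counts, a ratio of -1.78 (-2.10 to -1.47). A second pair of lower regions, with 394 and 71 and with 602 and 135 counts, lay 133.1 and 132.3 kb from the start. At Tenm3 (ENSMUSG00000031561) all 6 lay in introns within 66.4 kb of a start, and their ratios ran from -1.73 to -1.09. At Npvf (ENSMUSG00000029831) all 6 were intergenic and up to 361.4 kb away, with 306 to 891 WT and 65 to 225 TCKO counts.

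**Figure D4:**
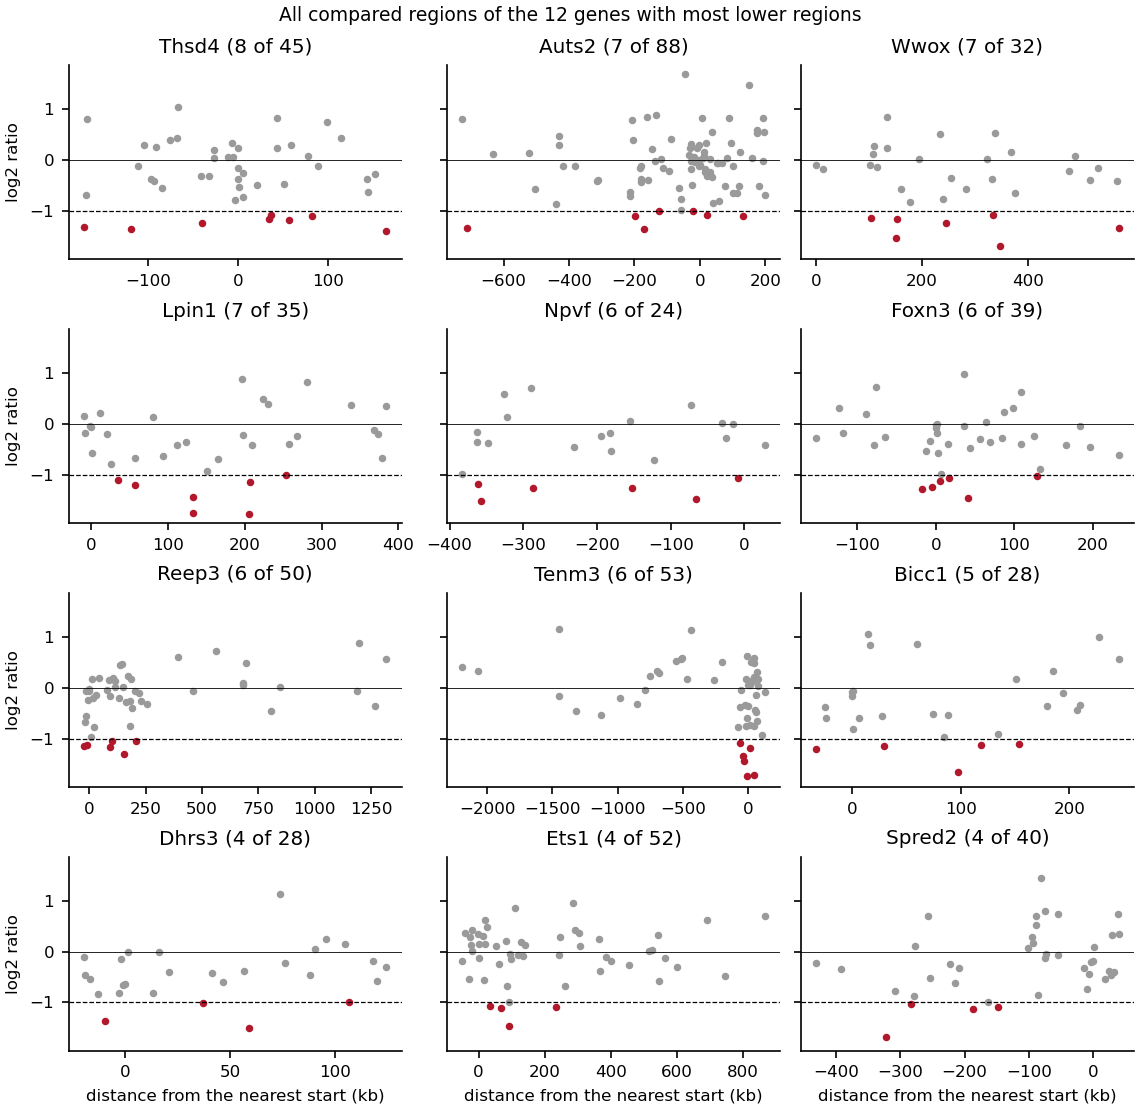
Each panel shows all compared regions of 1 of the 12 genes with most lower regions (ties ordered by their summed WT counts), by distance from the nearest start in kb (negative is before the start) and by log2 ratio of scaled TCKO to WT counts. Red points are lower regions, with their number and the number of compared regions in each title, and grey points lie between them in every panel.

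Genes with known functions were counted by 25 lists of 852 genes, chosen with earlier results of these data known. Of 9383 compared regions nearest to a listed gene, 259 were lower (2.76%, against 2.01% of all compared regions), at 174 genes. Outside promoters the shares were 3.01% and 2.33%. The counts per list are small and a list's share is a description only. A gene with many compared regions can hold several lower ones at a share near that of all regions. Regions are named by the nearest start at any distance, such as 719.7 kb for one near Efnb2. The farthest lower region lay 1.36e+06 bp from its nearest start.

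**Figure D5:**
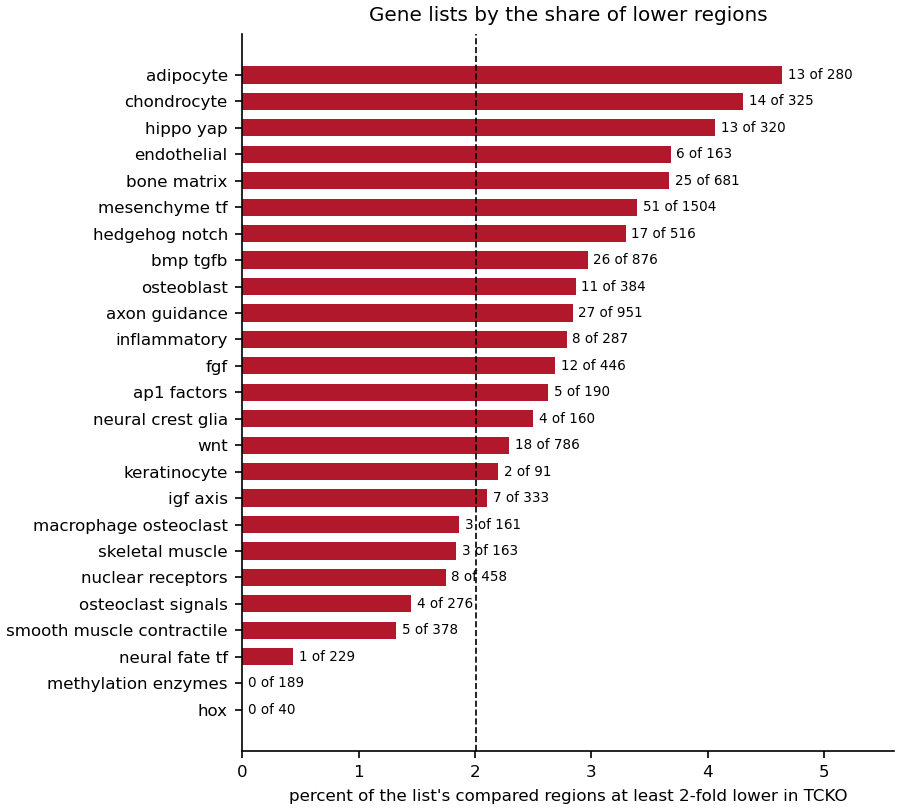
Bars give, for each of the 25 gene lists, the percent of compared regions nearest to its genes that were at least 2-fold lower in TCKO, with the numbers beside them. The dashed line marks 2.01%, the share over all compared regions, and the shares run from 0% for the hox and methylation enzyme lists to 4.64% for the adipocyte list.

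Among bone matrix genes 25 of 681 regions were lower (3.67%), at 17 of 46 genes. Tnc, which encodes the matrix glycoprotein tenascin C, had 4 of 44, the lowest with 709 WT and 145 TCKO counts at 102.1 kb before the start, a ratio of -1.57 (-1.83 to -1.32). Its median over all 44 was 0.16. Col1a2, a chain of type I collagen, had 2 of 24, both before the start, with 1284 and 333 counts at 85.6 kb and 606 and 165 at 68.2 kb. Adamts2, a procollagen protease, and Col12a1, a fibril-associated collagen, had 2 each. Of the osteoblast genes 11 of 384 regions were lower (2.86%). Runx2, the factor that sets osteoblast fate, had 2 of 41, both intronic, with 254 and 66 and with 645 and 195 counts, and the median over its 41 regions was 0.066. Col24a1, another fibrillar collagen, had 2 of 13 and Dlx6, a homeobox factor, 1 of 9.

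Signalling genes were represented by ligands, receptors and intracellular factors. In the Wnt list 18 of 786 regions were lower (2.29%). Wnt5a, a ligand of the non-canonical pathway, had 4 of 20, of which the lowest lay 21.7 kb after a start with 791 and 153 counts, a ratio of -1.65 (-1.90 to -1.40). Its median over all 20 was 0.17. The nuclear factor genes Tcf7l1 and Tcf7l2 had 2 of 13 and 2 of 53. The ligand gene Wnt7b had 1 of 11, with 1553 and 413 counts. In the BMP and TGF-beta list 26 of 876 were lower (2.97%). Smad3, which carries TGF-beta signals, had 3 of 30, the lowest with 1278 and 320 counts, a ratio of -1.28 (-1.46 to -1.104), and the inhibitory factors Smad6 and Smad7 and the receptor gene Tgfbr2 had 2 each.

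In the FGF list 12 of 446 regions were lower (2.69%), at only 4 genes. Within 100 kb of a start the share was 1.14%, against 1.86% over all such regions, and by gene body it was 1.16%, against 1.89%. The gene body share also counts regions inside other genes such as Nsmce4a, because the annotated body of Fgfr2 spans chr7:130162451-133123350. The receptor gene Fgfr2 had 4 of 39, with 268 and 50, 773 and 163, 900 and 212, and 729 and 196 counts, of which the first had a ratio of -1.69 (-2.14 to -1.27). The feedback inhibitor genes Spred2 and Spry2 had 4 and 2, and the ligand gene Fgf18 had 2 of 11. The hedgehog and Notch list had 17 of 516 (3.29%). Within 100 kb of a start its share was 2.05%, against 1.86% over all such regions, and by gene body 2.74%, against 1.89%. Gas1, a hedgehog co-receptor, had 4 of 39, the lowest with 711 and 150 counts, a ratio of -1.52 (-1.78 to -1.27). Rbpj, the DNA-binding factor of Notch signalling, had 4 of 33, all in its introns, the Notch ligand gene Jag1 had 3 and Gli3, a hedgehog effector, 2. The IGF list had 7 of 333 (2.10%). Irs2 had 2 of 52, Igf2r 1 of 16, Igfbp7 1 of 29 and Pappa 1 of 37. Hippo pathway genes had 13 of 320 (4.06%), at 10 of 25 genes, with 2 each near Tead1, Frmd6 and Fat4 and 1 near Lats2, a kinase, with 1727 and 491 counts.

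Mesenchymal transcription factor genes had 51 of 1504 regions lower (3.39%), at 32 of 73 genes. Eya4 had 4 of 34, Sox9 4 of 60, Nfia 3 of 32 and Sox5 3 of 39. Nfia, which encodes a Nuclear factor I protein, had all 3 in its introns, with 854 and 209, 345 and 78, and 663 and 181 counts and ratios of -1.31, -1.42 and -1.15. The 4 near Sox9, which sets chondrocyte fate, were intergenic and 128.5 to 782.4 kb before its start, with WT counts from 219 to 511 and TCKO counts from 63 to 149. Those of Sox5 had ratios of -2.12, -1.71 and -1.30. The chondrocyte list, which also holds Sox5 and Sox9, had 14 of 325 (4.31%), with 2 of 6 near Cnmd, which encodes the cartilage protein chondromodulin, and 2 near Sox6. The adipocyte list had 13 of 280 (4.64%), of which 7 were those of Lpin1, with single regions near Agt, Cebpb and Lpl. For genes whose body or 2 kb before the start overlapped a region, these last shares were 1.83% and 1.32%, against 1.89% over all such regions.

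Other lists had shares on both sides of 2.01%. The axon guidance list had 27 of 951 (2.84%). Slit3 had 3 of 44, Robo1 3 of 44, Efna5 3 of 67 and Efnb2 2 of 49. The AP-1 factor list had 5 of 190 (2.63%). Maf had 2 of 50, Jun 1 of 27, Jdp2 1 of 12 and Atf7 1 of 5. The inflammatory list had 8 of 287 (2.79%, but 1.32% by gene body), among them regions near Csf1, Cxcl14, Nfkbia and Cxcl12. Nuclear receptor genes had 8 of 458 (1.75%), with 1 each near Rxra, Nr4a1, Rxrg and Nr3c1. Genes that signal to osteoclasts had 4 of 276 (1.45%). Efnb2 had 2 of 49, Csf1 1 of 16 and Cxcl12 1 of 40. Smooth muscle and contractile genes had 5 of 378 (1.32%), with 1 each near Actn1, Pdlim3, Mrtfa and Mylk. The neural fate factor list had 1 of 229 (0.437%), near Pou3f3. No region of the 40 of Hox genes or of the 189 of methylation enzyme genes was lower, and among the latter the targeted genes Tet1, Tet2 and Tet3 had 10, 16 and 10 compared regions with lowest ratios of -0.91, -0.57 and -0.81.

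Lists for other cells held few compared regions, and their shares lay on both sides of 2.01%. The endothelial list had 6 of 163 (3.68%, but 1.28% by gene body), 4 near Cdh5, a cadherin of vessels, and 2 near Erg, an ETS factor. The macrophage and osteoclast list had 3 of 161 (1.86%), 2 near Ptprc and 1 at Ctsk. The skeletal muscle list had 3 of 163 (1.84%), 2 near Mef2a and 1 in Myh1, the glial list 4 of 160 (2.5%), 2 of them near Mitf and 1 each near Mbp and Sox2, and the keratinocyte list 2 of 91 (2.20%), at Grhl2 and Grhl3.

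Regions within 1 kb of the starts of marker genes were summed to check the cells. Of 41 osteoblast markers 36 had such a region, with 35339 WT and 20458 TCKO counts, a ratio of -0.071. Runx2 had 1768 and 938 counts there, Col1a1 1375 and 795, and Sp7 290 and 163. Ifitm5, Mepe, Phex, Sost and Tnn had no region there. Macrophage and osteoclast markers held 7343 and 4412 counts (-0.018) with no region at 10 of 27 starts, among them Ptprc. At starts with a region, Ctsk had 1379 and 460 counts, Spi1 107 and 49, and Csf1r 90 and 110. Endothelial markers held 5872 and 3758 (0.073) with none at 9 of 21, among them Pecam1, while Cdh5 had 57 and 74. The ratios were -0.15 for skeletal muscle, where 15 of 34 starts, Myod1 included, had none, -0.12 for chondrocyte, -0.20 for adipocyte, -0.12 for glial and 0.22 for keratinocyte markers. The part of other cells in the lower regions was not tested, and fewer open copies in each cell cannot be told apart from fewer cells with an open copy.

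Words in the gene descriptions of the RefSeq annotation gave further groups, chosen after the data were seen. Lower regions were 8 of 139 (5.76%) near genes described by teneurin, against 2.01% of the regions of any described gene, 21 of 639 (3.29%) by collagen, 24 of 737 (3.26%) by integrin, 12 of 375 (3.20%) by ephrin or Eph receptor and 14 of 454 (3.08%) by forkhead. They were 41 of 1987 (2.06%) by solute carrier, 79 of 4466 (1.77%) by kinase, 44 of 3007 (1.46%) by zinc finger, 6 of 597 (1.01%) by ribosomal protein and 1 of 198 (0.505%) by histone. Of the 8 teneurin regions 6 are those of Tenm3 described above. These groups overlap the lists and share regions with them.

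The lower regions were mostly single regions rather than parts of long stretches. The nearest compared region was itself lower for 130 of the 2010 (6.47%), against 1.958% for all compared regions. With that neighbour up to 1 kb away this held for 22 of 130 (16.9%), against 127 of 10926 (1.16%). At 5 to 20 kb the shares were 6.71% and 2.20%, and at 20 to 100 kb they were 1.65% and 1.85%. Where that neighbour lay up to 1 kb away, its median ratio was -0.50 for 130 lower regions, against -0.0053 for compared regions, and it was -0.24 at 1 to 2 kb, -0.12 at 5 to 20 kb and 0.016 at 20 to 100 kb. Of 2374 windows of 1 Mb with a compared region, 1061 held a lower one and 45 held 5 or more. The only windows in which at least 20% were lower held 1 of 5, on chromosomes 10, 5 and 14. The most in any window was 9 of 83, between 60 and 61 Mb of chromosome 9, of which 8 were those of Thsd4, and this window was chosen after its values were seen. Within 5 Mb of the targeted loci, 20 of 516 regions were lower around Tet1 (3.88%), 8 of 390 around Tet2 (2.05%) and 7 of 461 around Tet3 (1.52%).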

How the data were processed

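Per the labels, STAR 2.7.0e, GRCm38 and MACS2 were used. Per the study's methods, reads were aligned end to end, only uniquely mapped reads with few mismatches were kept, and peaks were called by summit. The deposited files merge the replicates of a genotype. Removal of duplicate or mitochondrial reads was not given in the sources used here. The authors deposited raw read counts per region, and peak lists that give each summit's fold enrichment over local background, its −log10 q-value and a score. The score was not used.

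Depth was 56898657 WT and 34608167 TCKO counts. After scaling TCKO to the WT total, 1 was added to both counts and the log2 ratio taken, with a 2-fold limit and no test. Peak overlaps (at least 1 bp) used bedtools 2.31.1. Protein-coding starts came from GENCODE M21, and sequences from RefSeq GRCm38.p6. Consensus sequences were matched exactly, on either strand, in the central 200 bp. Alternative factors came from edgeR 4.0.16 (TMM) and DESeq2 1.42.0. Steps were tested on simulated data. The lower regions and the gene and sequence lists were chosen with earlier results of these data known. Named were the 12 lowest ratios with at least 200 WT counts, the 8 regions with most WT counts (1 is not reported here), the 12 genes with most lower regions (ties by summed WT counts), the 12 most read promoter regions and those of listed genes, up to 4 genes per list with most lower regions, windows of 1 Mb with at least 20% lower, the 3 regions on each side of the limit, and the targeted genes. Printed sequences followed the rule given beside them, without chromosome 18.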

Additional observations from a re-analysis of the deposited data

How the results depend on the processing

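No paired analysis was possible because the table holds 1 merged column per genotype. For the same reason leaving out replicates, a replicate block and a DESeq2 test were not run, and the results describe 2 merged libraries. Of 16 alternatives, 9 left the number of lower regions within 1.5 times of 2010. It was 22489 with no scaling, 15835 with the peak caller's background, 8794 at 1.5-fold, 128 at 3-fold, 552 with the interval wholly below the limit, 838 with at least 50% of the region covered in both lists and 315 with a −log10 q of 10 in both lists. Each of these settings admits more or fewer regions by its construction. The setting of at least 50 WT counts, among the 9, had little room to change the number.

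Shares moved past their interval, which is only a mark for the size of a move, under these settings. In each the order against the compared regions stayed. In the order no scaling, peak caller's background, 1.5-fold and 3-fold, promoters held 9.94%, 6.42%, 4.40% and 2.34%, the NFI site was in 19.99%, 21.9%, 23.8% and 35.2%, the Runt site with a CpG in 1.33%, 1.36%, 1.46% and 3.12%, the AP-1 site in 14.6%, 14.3%, 12.4% and 5.47%, and 3 to 11 CpG in 51.9%, 54.5%, 57.3% and 71.1%. With the interval wholly below the limit, promoters held 2.36%, the Runt site with a CpG was in 3.08%, AP-1 in 6.16% and 3 to 11 CpG in 71.6%. With 50% covered, AP-1 was in 12.4% and 3 to 11 CpG in 68.5%. With the −log10 q of 10, promoters held 4.13%, AP-1 was in 13.0% and 3 to 11 CpG in 67.3%. Bins of GC content gave 60.5% with 3 to 11 CpG. A promoter of 2 kb gave 4.08%. Searching the whole region gave 52.0% for NFI, 4.73% for Runt with a CpG and 23.4% for AP-1, and 200 bp at the highest WT summit gave 29.2% for NFI and 12.5% for AP-1.

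The share of lower regions near listed genes over that near all genes was 1.37 and moved to 1.16 with no scaling, 1.19 with the peak caller's background and 1.14 by gene body. At 838 regions with 50% covered, the chondrocyte list's share over all was 0.777, and at 315 regions with the stricter q the adipocyte list had none, so the order of single lists rests on few regions. Distal regions only and 200 to under 800 WT counts were settings chosen after seeing the data, and neither moved a result.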

Other observations

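Chromosome X was outside the choice of regions. By the same limits 31 of its 1892 shared regions with at least 100 WT counts were at least 2-fold lower in TCKO (1.64%).

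At Dhx34, an RNA helicase gene on chromosome 7, 3 of 4 compared regions were lower, a pattern chosen after its values were seen. They lay in introns within 14.3 kb of the start, with 1541 WT and 421 TCKO counts, 774 and 162, and 757 and 211. Each held an AP-1 site in the central 200 bp, which 9.75% of lower regions did. At Cdkn1c, an imprinted inhibitor of the cell cycle, 3 of 11 were lower, all inside introns of Kcnq1, and at Itga11, a collagen-binding integrin, 4 of 20, both chosen in the same way.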
